A study of Mus musculus with 12 samples.

Results

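The chemokine ligand genes *Ccl2*, *Ccl3*, *Ccl4*, *Ccl6*, *Ccl7*, *Ccl9*, *Ccl12*, *Cxcl2*, *Cxcl10* and *Cxcl16* were followed in microglia, the resident macrophages of the brain, with and without the fractalkine receptor CX3CR1. A peak belonged to one of these 10 genes when the deposited peak table gave that gene as its nearest start site. This gave 8 of 26706 peaks of Rpb2, a subunit of RNA polymerase II, at 7 of the genes, and 47 of 55862 peaks of H3K27ac, the acetylated histone mark of active promoters and enhancers, at 9 of them. *Ccl4* and *Ccl7* had H3K27ac peaks but no listed Rpb2 peak, and *Cxcl2* had none in either table.

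Both marks were measured by ChIP-seq, which sequences the chromatin fragments that an antibody pulls down and so counts reads where the protein or mark was. The cells were from mice 2 mo of age, either *Cx3cr1*-WT or *Cx3cr1*-KO, the latter homozygous for an eGFP knock-in allele of that gene. All mice were C57BL/6J littermates from crosses of heterozygous parents, untreated, and the cells were sorted as CD11b+CD45lo. A library held the cells of 3 mice of 1 sex, and each genotype had a pool labelled female and another labelled male, so that n = 2 pools per genotype and 4 libraries per mark. The disruption was present in every cell from conception, and a pool does not show how its 3 mice varied. Of the 12 samples of the series, the 4 input samples were not used here.

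Chemokines are small secreted proteins that direct the migration of leukocytes through receptors on the target cell. In microglia and other macrophages, the promoters of inflammatory chemokine genes are opened by lineage factors such as PU.1 and driven by NF-kB, AP-1 and interferon-regulated factors when the cell is stimulated. The CC ligands of mouse chromosome 11 lie in gene clusters that arose by duplication. The monocyte chemoattractants CCL2, CCL7 and CCL12 act through CCR2, CCL3 and CCL4 are the macrophage inflammatory proteins, CCL6 and CCL9 are ligands of CCR1 that occur in rodents, CXCL2 attracts neutrophils, CXCL10 is the interferon-induced ligand of CXCR3, and CXCL16 is a membrane-bound ligand of CXCR6.

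The libraries were not equal. Totals ran from 11662185 to 44332626 reads for Rpb2 and from 10395804 to 21134403 reads for H3K27ac. In the H3K27ac library labelled WT female, 15.9% of the reads lay in peaks, against 61.1 to 65.3% in the other 3. In the Rpb2 library labelled WT female, the 3 peaks at *Ddx3y*, *Eif2s3y*, *Kdm5d* and *Uty*, which are on the Y chromosome, held 136 reads, against 0 in the KO female library, so this library goes against its sex label. The labels were kept, and for some but not all peaks the log2 difference is also given without the library concerned. All 12 microglial marker genes on a list that included *P2ry12*, *Tmem119* and *Sall1* had peaks of both marks. With the peak centre within 1000 bp of a start site, 11 of these genes had an Rpb2 peak and 0 had an H3K27ac peak. Peak distances here and below are from the centre, so a wide H3K27ac peak centred farther away can still cover a start. None of 7 neutrophil or 6 lymphocyte marker genes had an Rpb2 peak, and 2 of 11 border macrophage and monocyte marker genes had one, with 0 within 1000 bp of a start site. H3K27ac peaks were listed at 4 of the 7, 3 of the 6 and 8 of the 11, and within 1000 bp of a start site at 0, 1 and 3 genes of these lists. Of 10 neuron and glia marker genes 1 had Rpb2 peaks, whose start-site peaks summed to 84.0 CPM in the library labelled WT female, 28.3 in WT male, 35.3 in KO female and 16.0 in KO male, and 8 had H3K27ac peaks. The H3K27ac start-site peaks of the border macrophage list summed to 19.8 and 21.7 CPM in the WT pools and to 12.996 and 5.94 CPM in the KO pools, and the part of such cells in the results was not tested. CPM are counts scaled to the TMM-adjusted total of 1000000 reads in tested peaks of a library. At the start site of *Cx3cr1* itself, Rpb2 stood at 287 and 304 CPM in WT and at 262 and 243 CPM in KO pools, a peak outside the disrupted coding part that does not check the genotype.

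Promoter sequences from RefSeq (GRCm38.p6, the assembly of mm10) were found for 6 of the 10 genes. They are shown for the genes whose start site had an Rpb2 peak in the lists of both genotypes and for *Cxcl10*, whose Rpb2 peak lay away from its promoter. Each runs from 250 bases before to 50 after the RefSeq start, 5′ to 3′ on the strand of the gene. Capitals mark letters that match a searched motif on either strand, which were a kB site (GGG, any 5 bases, CC), an interferon-stimulated response element (ISRE) core (GAAA, any 2 bases, GAAA), a TATA box (TATAAA), an AP-1 site (TGANTCA), an ETS core of the PU.1 class (GGAAGT) and a CCAAT box (CCAAT).
*Ccl3*, chr11:83649329-83649628, minus strand: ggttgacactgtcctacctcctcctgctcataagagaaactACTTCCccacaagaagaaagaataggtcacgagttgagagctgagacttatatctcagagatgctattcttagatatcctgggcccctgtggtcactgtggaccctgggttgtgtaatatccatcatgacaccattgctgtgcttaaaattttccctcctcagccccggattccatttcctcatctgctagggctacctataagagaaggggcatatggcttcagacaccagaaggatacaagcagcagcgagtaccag
*Ccl6*, chr11:83593038-83593337, minus strand: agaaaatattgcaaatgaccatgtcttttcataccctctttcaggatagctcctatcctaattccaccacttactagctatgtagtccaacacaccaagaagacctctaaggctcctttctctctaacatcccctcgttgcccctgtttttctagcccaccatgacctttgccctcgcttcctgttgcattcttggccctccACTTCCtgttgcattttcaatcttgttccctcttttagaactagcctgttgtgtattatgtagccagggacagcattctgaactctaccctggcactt
*Ccl9*, chr11:83578587-83578886, minus strand: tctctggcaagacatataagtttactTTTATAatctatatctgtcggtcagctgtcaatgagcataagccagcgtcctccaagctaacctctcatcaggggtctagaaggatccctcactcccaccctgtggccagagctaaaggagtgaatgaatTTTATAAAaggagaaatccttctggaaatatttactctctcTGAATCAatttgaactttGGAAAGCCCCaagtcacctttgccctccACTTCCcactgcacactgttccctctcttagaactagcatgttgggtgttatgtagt
*Ccl12*, chr11:82101595-82101894, plus strand: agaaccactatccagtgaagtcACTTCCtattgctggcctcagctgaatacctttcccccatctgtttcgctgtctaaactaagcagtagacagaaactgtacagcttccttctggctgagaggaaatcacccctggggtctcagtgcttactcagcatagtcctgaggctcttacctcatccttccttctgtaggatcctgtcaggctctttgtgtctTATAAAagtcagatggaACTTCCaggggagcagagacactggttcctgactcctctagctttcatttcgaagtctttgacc
*Cxcl10*, chr5:92348840-92349139, minus strand: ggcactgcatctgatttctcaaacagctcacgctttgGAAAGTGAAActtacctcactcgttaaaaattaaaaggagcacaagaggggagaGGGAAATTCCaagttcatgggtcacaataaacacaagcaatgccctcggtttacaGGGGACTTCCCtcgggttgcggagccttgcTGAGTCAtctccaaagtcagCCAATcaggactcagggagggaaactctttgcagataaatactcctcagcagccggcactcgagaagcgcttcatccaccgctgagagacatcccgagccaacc
The Rpb2 peak listed for *Cxcl10*, shown because it is the highest Rpb2 signal given to that gene, lies at chr5:92353645-92353854 in an intron of *Art3*, and is printed on the plus strand.
*Cxcl10*, Rpb2 peak: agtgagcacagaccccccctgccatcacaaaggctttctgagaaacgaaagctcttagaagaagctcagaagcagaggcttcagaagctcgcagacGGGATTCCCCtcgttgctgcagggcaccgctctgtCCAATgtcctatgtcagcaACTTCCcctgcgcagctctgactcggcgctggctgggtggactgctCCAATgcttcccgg

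The ETS core was found in 5 of the 6 promoters, namely those printed, and in 23.8% of the 32851 promoters of the same length in the table. The kB letters were in the promoters of *Ccl9*, *Cxcl10* and *Cxcl2*, but 50.8% of all promoters held them. The ISRE core was found at *Cxcl10*, with its first base at -213 from the start, and in 3.44% of all promoters. In *Ccl12* the TATA box began at -31, and *Ccl9* held TATA letters at -92 and, on the other strand, at -94 and -224 (13.6% of all promoters held them). AP-1 letters were in *Ccl9* and *Cxcl10* (7.81% of all), and CCAAT in *Cxcl10* (37.4% of all). At *Cxcl10*, ETS letters at -100 overlapped a kB match, and at *Ccl9* the TATA matches at -94 and -92 overlapped each other. The distal *Cxcl10* peak held kB, ETS and CCAAT letters. These matches are letters in a window and show no binding.

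Rpb2 at the chemokine ligand genes was compared between genotypes to ask whether polymerase occupancy differed without CX3CR1. No peak passed the threshold, an adjusted p of 0.05 in edgeR's quasi-likelihood test: 0 of 8, where 0.00749% of all 26706 Rpb2 peaks did. At an unadjusted p of 0.05, 1 of 8 passed, *Ccl3*, which was lower in KO, beside 12.2% of all (6.12% higher and 6.06% lower). In CPM, the KO pools lay below both WT pools at 3 peaks, those at the starts of *Ccl3*, *Ccl6* and *Ccl9*, and above both at 0. Among all peaks, 21.7% had KO below and 25.7% had KO above. Scaled to all reads of a library instead, the pools overlapped at *Ccl6* and *Ccl9* and stayed apart at *Ccl3*. The log2 fold change, or log2 difference, is given as KO over WT throughout. It was above 0 at 4 of 8 peaks and at 52.3% of all, with a median of -0.07 for the 8 and 0.04 for all. The 4 peaks above 0 were those in the KO list alone, so their direction is not independent of that list. The 4 peaks in the lists of both genotypes were all below 0. Their median in this fit was -0.49, where all such peaks had -0.17. Signal per library cannot tell fewer cells of a kind from less signal per cell.

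The macrophage inflammatory protein genes are described first. *Ccl3* encodes MIP-1 alpha, and its Rpb2 peak (chr11:83649225-83649500, mm10) was centred 16 bp downstream of the start. There were 56 reads in the pool labelled WT female, 47 in WT male, 100 in KO female and 41 in KO male, which is 43.5, 30.9, 18.2 and 16.0 CPM. Both KO pools were lower than both WT pools, at 17.1 ± 1.55 against 37.2 ± 8.91 CPM (SD, n = 2 pools each). On the log2 scale the difference was -1.12 (SE 0.51, adjusted p = 0.406 by edgeR), which did not pass across all peaks. Without the library labelled WT female it was -0.87 (adjusted p = 0.472).

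*Ccl6* and *Ccl9*, which neighbour *Ccl3*, also had both KO pools below both WT pools in CPM. The *Ccl6* peak (chr11:83592792-83593124, in exon 1) stood at 45.1 and 47.4 CPM in the WT pools and at 28.2 and 35.1 CPM in the KO female and male pools. This gave -0.55 on the log2 scale (SE 0.42, adjusted p = 0.619). The *Ccl9* peak (chr11:83578333-83578583, also in exon 1) lay just downstream of the printed promoter. It was the highest by density of the start-site peaks, with 114, 112, 386 and 127 reads, or 88.6 and 73.7 CPM in WT and 70.2 and 49.5 CPM in KO. The log2 difference was -0.43 (SE 0.33, adjusted p = 0.618), and the gap between the lowest WT and highest KO pool was small beside the spread within each genotype. A further *Ccl9* peak, 12965 bp downstream of the start at chr11:83565529-83565813 in intergenic DNA, stood at 20.99, 5.93, 16.7 and 11.3 CPM, and its pools overlapped (log2 fold change 0.08, SE 0.77).

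The monocyte chemoattractant genes *Ccl12* and *Ccl2* showed no such order. At *Ccl12* (chr11:82101753-82102040, over the start) Rpb2 stood at 42.8 and 54.6 CPM in WT and at 37.5 and 47.6 CPM in KO. The ranges overlapped, and the log2 difference was -0.20 (SE 0.39, adjusted p = 0.864). At *Ccl2* (chr11:82035501-82035723, over the start) Rpb2 stood at 5.44 CPM in the library labelled WT female, from 7 reads, where WT male stood at 29.0 and the KO pools at 23.3 and 30.0 CPM. That library alone was low and set the direction: the log2 difference was 0.61 (SE 0.70, adjusted p = 0.753) with it and -0.14 without it. *Ccl7*, which lies between these genes, had no listed Rpb2 peak.

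The CXC genes also overlapped between genotypes. The *Cxcl16* peak (chr11:70459779-70459986, at the start) stood at 28.8 and 48.7 CPM in WT and at 50.6 and 35.9 CPM in KO (log2 fold change 0.16, SE 0.44, adjusted p = 0.910; -0.18 without the library labelled WT female). It also lies within *Zmynd15*, which starts nearby on the opposite strand, and the reads do not tell the genes apart. The distal *Cxcl10* peak stood at 54.4 and 44.1 CPM in WT and at 42.9 and 60.1 CPM in KO (log2 fold change 0.06, SE 0.38, adjusted p = 0.964). The start of *Cxcl10* had no listed Rpb2 peak.

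**Figure D1:**
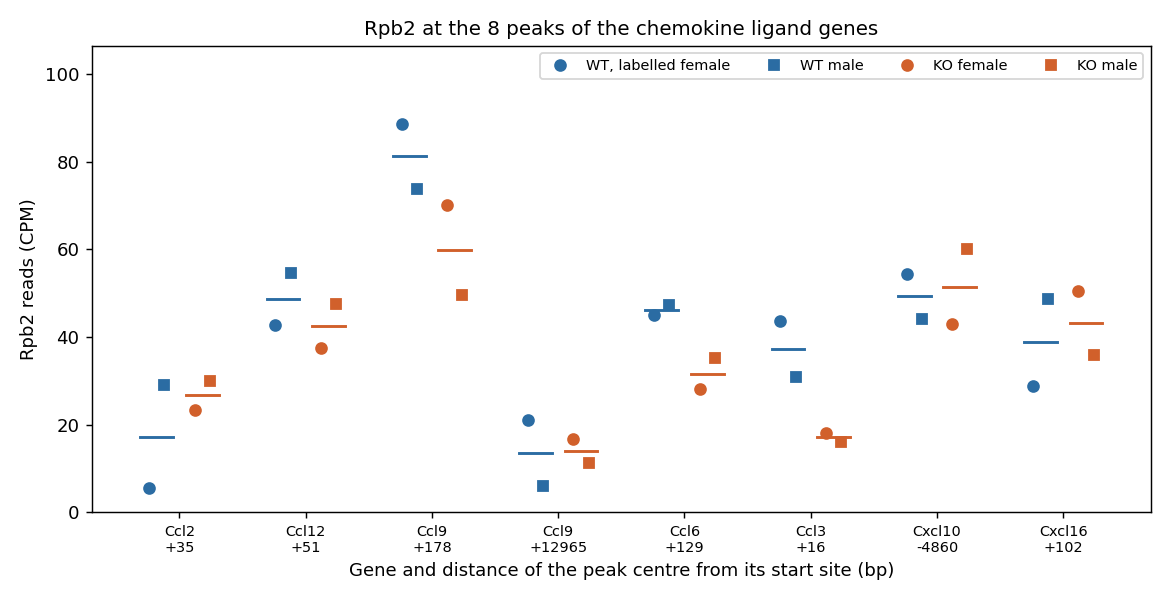
Rpb2 reads (CPM, y axis) in each of the 4 libraries at the 8 Rpb2 peaks of the chemokine ligand genes (x axis: gene and distance of the peak centre from the start site in bp). Circles are pools labelled female, squares are male pools and lines are means of 2 pools; both KO pools lie below both WT pools at *Ccl3*, *Ccl6* and the start of *Ccl9*.

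Levels can be ordered per length as density, which is CPM (here of reads in all peaks, without TMM) per kb of peak. Averaged over the 4 libraries, the Rpb2 start-site peaks fell in the order *Ccl9* (280), *Cxcl16* (197), *Ccl12* (158), *Ccl6* (117), *Ccl2* (98.8) and *Ccl3* (97.7). The ranges over libraries overlapped between every pair of neighbours in that order. Among all Rpb2 peaks within 1000 bp of a start site, the WT density of *Ccl9* was at the percentile 77.9, *Ccl12* at 50.2, *Ccl3* at 39.5 and *Ccl2* at 18.2. In KO pools *Ccl9* was at the percentile 70.7, *Ccl12* at 48.998, *Ccl3* at 13.8 and *Ccl2* at 39.2.

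H3K27ac at the same genes was compared to ask whether the active chromatin around them differed. None of 47 peaks passed an adjusted p of 0.05 (edgeR), where 0.0233% of all 55798 tested peaks did. At an unadjusted p of 0.05, 4 of 47 passed, beside 4.95% of all; 4 were higher in KO and 0 lower, beside 1.35 and 3.6% of all peaks. The KO pools lay above both WT pools at 10 of 47 and below both at 9, beside 14.3 and 13% of all. Most of these peaks were listed only for the genotype where they were higher. Their direction is therefore not independent of the peak lists. The median log2 fold change was 0.19 for the 47 peaks and -0.21 for all, and 0.12 for the 22 peaks found in the lists of both genotypes, where all such peaks had 0.04. Setting the 2 peaks without WT reads at a bound of 3 reads over the WT pools left the median at 0.19. The WT list alone held 9 of the 47 peaks and the KO list alone 16, and 22 were in both, while these classes held 33.2, 29.1 and 37.7% of all.

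Every one of the 8 Rpb2 peaks overlapped an H3K27ac peak, and 76.6% of all Rpb2 peaks did. The acetylated peak over the start of *Cxcl16* carries the name *Zmynd15* in the table (chr11:70458217-70460998) and was not counted among the 47. It held 113, 188, 294 and 585 reads, in the order WT female, WT male, KO female and KO male, with a log2 fold change of 0.16 (SE 0.32).

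At the start sites, 8 genes had an H3K27ac peak. *Ccl12* had the densest (chr11:82099828-82103516, over the printed promoter), at 60.7 CPM in the library labelled WT female, 111 in WT male, 107 in KO female and 105 in KO male. Only the weakly enriched WT female library was low, and the log2 difference was 0.29 (SE 0.29, adjusted p = 0.893), or -0.08 without that library. *Ccl2* (chr11:82034689-82036352) stood at 9.32 and 20.9 CPM in WT and at 15.6 and 25.9 CPM in KO, so that within each sex the KO pool was higher while the genotypes overlapped (log2 fold change 0.43, SE 0.41, adjusted p = 0.874; -0.02 without the WT female library). *Ccl7* (chr11:82045199-82045699) was weak, with 9 and 5 reads in the WT pools and 45 and 37 in the KO pools (log2 fold change 0.94, SE 2.84). Its peak came from the KO list alone, so the direction is not independent of that list.

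In the other CC cluster, the broad *Ccl6* peak (chr11:83589820-83596764) stood at 63.6 and 90.6 CPM in WT and at 96.4 and 112 CPM in KO. It was the start-site peak with most reads whose KO pools were both above both WT pools, at 0.43 on the log2 scale (SE 0.29, adjusted p = 0.811) and 0.20 without the WT female library. Rpb2 at the same start had both KO pools below both WT pools in CPM. At *Ccl9* (chr11:83576738-83580144) acetylation stood at 30.8 and 77.0 CPM in WT and at 56.4 and 55.3 CPM in KO, so both KO pools lay between the WT pools (log2 fold change 0.04, SE 0.29). *Ccl3* (chr11:83647713-83650533) stood at 30.5 and 54.8 CPM in WT and at 57.9 and 45.9 CPM in KO (log2 fold change 0.27, SE 0.30, adjusted p = 0.914; -0.08 without the WT female library), with overlapping pools. *Ccl4* (chr11:83661562-83664488) stood at 23.2 and 38.0 CPM in WT and at 27.9 and 29.1 CPM in KO (log2 fold change -0.11, SE 0.33). The start of *Cxcl10* (chr5:92348594-92349651) held 0 reads in the WT female library, which allows up to 3 reads or 0.848 CPM, and 53, 67 and 83 in the others (8.47, 5.09 and 6.66 CPM), a spread too wide to order the genotypes.

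By density over the 4 libraries, the start-site H3K27ac peaks ranked *Ccl12* (25.8), *Ccl3* (16.7), *Ccl9* (16.0), *Ccl6* (13.01), *Ccl2* (10.7), *Ccl4* (10.1), *Ccl7* (4.86) and *Cxcl10* (4.70). Ranges overlapped between neighbours except between *Ccl4*, whose lowest library had 8.34, and *Ccl7*, whose highest had 6.70. *Ccl12* stood at the percentile 94.8 of start-site peaks in WT and 97.9 in KO, while *Cxcl10* stood at 8.35 and 20.6. The marks ordered the genes differently, since *Ccl9* led for Rpb2 and *Ccl12* for acetylation.

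**Figure D2:**
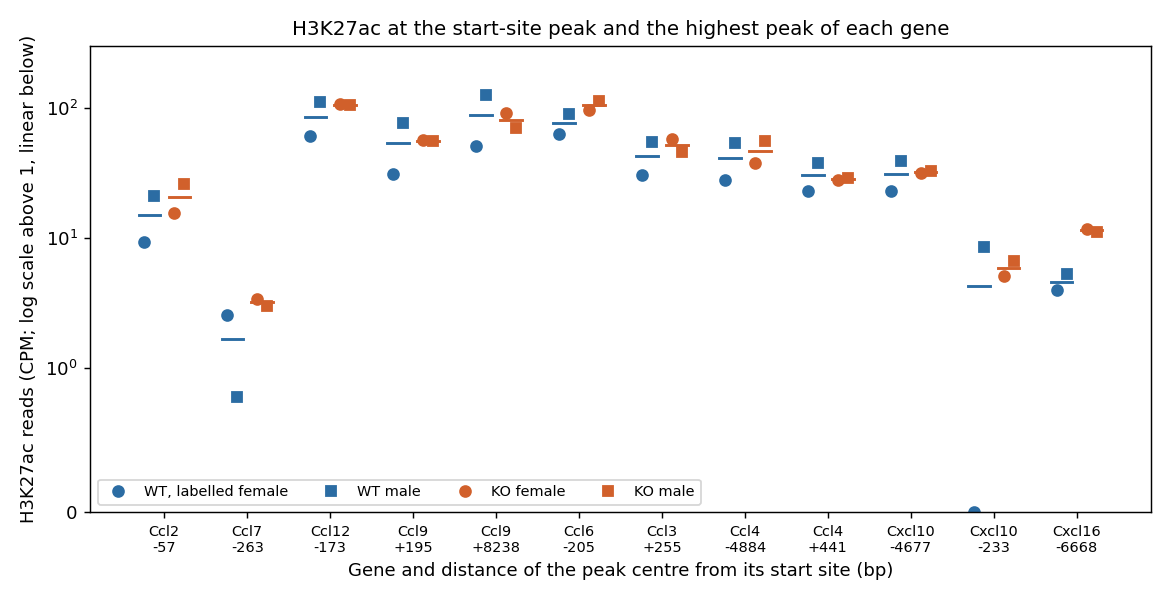
H3K27ac reads (CPM, y axis, logarithmic above 1 and linear below) in each library at the start-site peak and the peak with most reads of each gene (x axis: gene and distance from the start site in bp). Circles are pools labelled female, squares male pools, lines means of 2 pools. The WT female library is the lowest at 11 of the 12 peaks, all but *Ccl7*. At *Ccl6* (-205), *Ccl7* and *Cxcl16* both KO pools lie above both WT pools, and the *Ccl7* and *Cxcl16* peaks came from the KO list alone.

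The other 39 of the 47 peaks were centred farther than 1000 bp from the start of their gene. Among the 3 with the lowest p, the first and second were upstream of monocyte chemoattractant genes. At chr11:82087148-82088990, -13776 bp from the start of *Ccl12*, acetylation stood at 7.63 and 3.52 CPM in WT and at 13.1 and 17.2 CPM in KO, from 27, 22, 173 and 214 reads. Both KO pools were higher, a log2 difference of 1.47 (SE 0.58, adjusted p = 0.811), 2.10 without the WT female library (adjusted p = 0.0474) and 0.99 without the WT male library. At chr11:82022708-82024782, -11832 bp from *Ccl2*, it stood at 2.54 and 10.2 CPM in WT and at 14.7 and 15.0 CPM in KO (log2 fold change 1.17, SE 0.56, adjusted p = 0.811; 0.53 without the WT female library). Both peaks came from the KO list alone, and that list was built from the same libraries, so their direction is not independent of it.

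The third of these peaks was in both lists. It lay at chr11:83615894-83619947, -24833 bp from *Ccl6* in an intron of a non-coding transcript, at 17.8 and 42.7 CPM in WT and 46.0 and 48.7 CPM in KO. The KO pools were both higher, but WT male nearly reached them, and the log2 difference of 0.63 (SE 0.31, adjusted p = 0.811) was 0.14 without the WT female library. A peak at -28662 bp from *Ccl2* was the fourth with an unadjusted p under 0.05 and is named for that reason (10.7 and 9.43 CPM in WT, 18.6 and 19.1 CPM in KO, log2 fold change 0.91, adjusted p = 0.811).

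The highest peaks of 4 further genes were distal. *Ccl9* had its highest 8238 bp downstream of the start (chr11:83566959-83573838), at 50.9 and 125 CPM in WT and 91.1 and 70.4 CPM in KO, where the WT pools enclosed the KO pools (log2 fold change -0.14, SE 0.29). At -4884 bp from *Ccl4* (chr11:83654888-83660512, between *Ccl3* and *Ccl4*) acetylation stood at 28.0 and 53.9 CPM in WT and 38.0 and 55.9 CPM in KO (log2 fold change 0.19, SE 0.30). The acetylated region around the distal Rpb2 peak of *Cxcl10* (chr5:92352580-92354552) stood at 22.9 and 39.0 CPM in WT and at 31.4 and 32.9 CPM in KO (log2 fold change 0.04, SE 0.32). It exceeded the *Cxcl10* start-site peak in every library, as Rpb2 had its only listed peak there. At -6668 bp from *Cxcl16* (chr11:70465726-70467578, at the 3′ end of *Zmynd15*) acetylation stood at 3.96 and 5.27 CPM in WT and at 11.7 and 11.2 CPM in KO. The KO pools were both higher (log2 fold change 1.30, SE 0.71, adjusted p = 0.811 by edgeR). Without the WT female library the log2 fold change was 1.11. This peak also came from the KO list alone, so its direction is not independent of that list. Some weak peaks rested on few reads: -12549 bp from *Ccl6* there were 0 reads in both WT pools and 8 and 33 in KO, and -1381 bp from *Cxcl10* the WT pools had 6 and 40 reads and the KO pools 1 and 0. The former came from the KO list alone and the latter from the WT list alone.

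**Figure D3:**
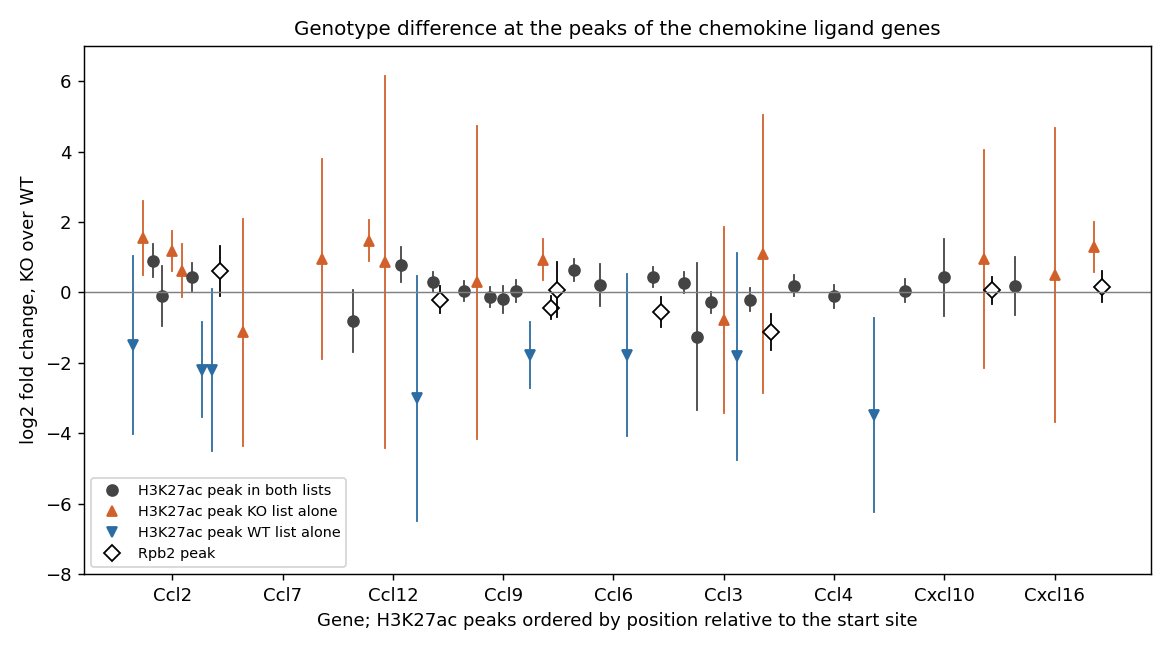
Log2 fold change of KO over WT with its SE (y axis) for 44 H3K27ac peaks (filled symbols, by the list that held the peak) and the 8 Rpb2 peaks (open diamonds) of each gene (x axis; peaks in order of position). The 3 H3K27ac peaks with at most 3 reads in a genotype are left out; peaks of both lists range from -1.25 to 0.91 for H3K27ac, and the highest and lowest H3K27ac values shown are of peaks held by 1 list.

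Over the clusters, the 17 H3K27ac peaks of *Ccl2*, *Ccl7* and *Ccl12*, whose starts span chr11:82035571-82101845, summed to 148 and 215 CPM in WT and to 219 and 241 CPM in KO. The lowest of these sums, 148 CPM, was that of the weakly enriched WT female library. The 23 peaks of *Ccl9*, *Ccl6*, *Ccl3* and *Ccl4* (starts within chr11:83578636-83662584) summed to 402 and 712 CPM in WT and to 572 and 600 CPM in KO, with the KO pools between the WT pools. The 4 Rpb2 peaks of that cluster summed to 198 and 158 CPM in WT and to 133 and 112 CPM in KO. Peaks were called in each genotype, so these sums depend on what was called. With all reads of a gene summed before the test, no gene passed in either mark (edgeR; 0 also at an unadjusted p of 0.05), with the lowest adjusted p of 0.489 at *Ccl3* for Rpb2 and 0.942 at *Ccl6* for H3K27ac.

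The difference between KO and WT in H3K27ac took opposite signs in the sexes at some peaks. At the start of *Ccl3* the log2 ratio of CPM was 0.92 in the female pools (95% exact counting interval 0.63 to 1.23) and -0.26 in the male pools (-0.45 to -0.06). At the start of *Ccl9* it was 0.87 (0.58 to 1.18) and -0.48 (-0.65 to -0.31). Each sex had 1 pool per genotype and the WT female library was the weakly enriched one, so sex and library cannot be told apart. At the start of *Ccl6* both ratios were positive, at 0.60 (0.40 to 0.81) and 0.31 (0.17 to 0.45). Intervals cover counting error only.

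**Figure D4:**
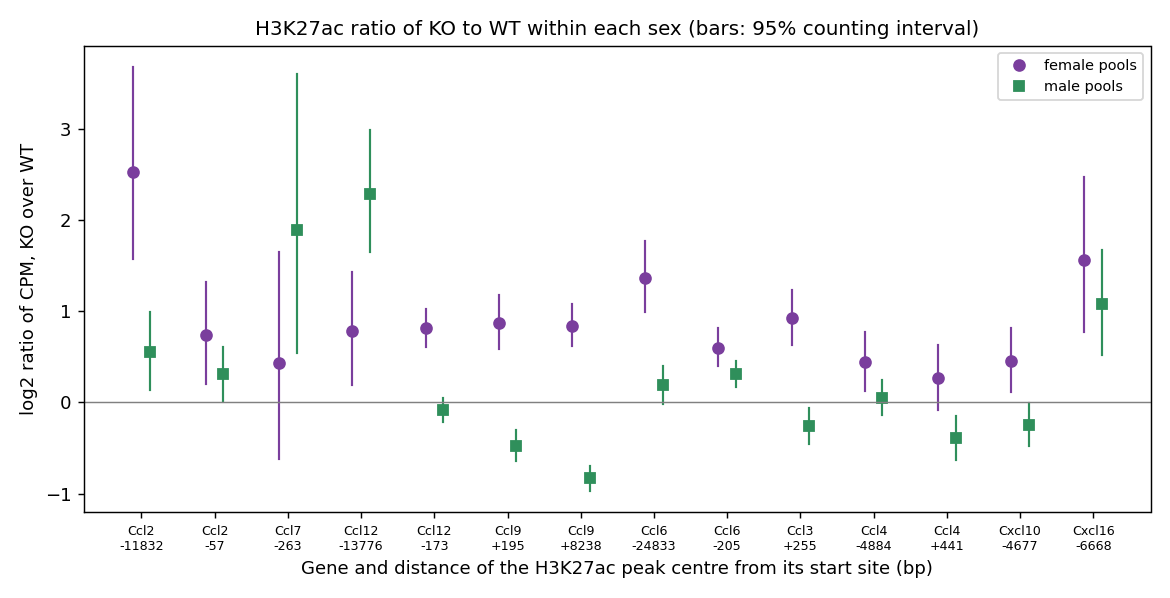
Log2 ratio of CPM, KO over WT, in the female and the male pools (y axis; bars are 95% exact counting intervals) at 14 described H3K27ac peaks (x axis: gene and distance from the start site in bp). Female ratios are above 0 at all 14 peaks shown and male ratios at 8. The weakly enriched WT female library enters every female ratio, and some peaks were chosen by low p or came from the KO list alone. The share over all peaks is not given, so these counts are no result about the genes. The start of *Cxcl10*, without WT female reads, is left out.

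The remaining genes of the pathway were read from lists. Of 27 other chemokine ligand genes, 5 had Rpb2 peaks and 14 had H3K27ac peaks. None of their 8 and 45 peaks passed (edgeR), beside 0.00749 and 0.0233% of all. At an unadjusted p of 0.05, 0 of the Rpb2 peaks were higher and 1 lower in KO, beside 6.12 and 6.06% of all. Of the H3K27ac peaks, 1 was higher and 2 lower, beside 1.35 and 3.6% of all. Of the peaks of 22 chemokine receptor genes, 1 of 35 for Rpb2 and 1 of 89 for H3K27ac passed, both lower in KO, beside 0.00749 and 0.0233% of all peaks. The Rpb2 peak was at chr9:123923559-123923877, 44974 bp from the start of *Ccr1*, the receptor of CCL3, CCL6 and CCL9, where the WT pools had 54 and 64 reads and both KO pools 0 (adjusted p = 0.0282). The H3K27ac peak was at chr9:123799932-123803410, -4806 bp from *Cxcr6*, the receptor of CXCL16, where the WT pools had 70 and 346 reads and the KO pools 54 and 12 (log2 fold change -3.89, SE 0.44, adjusted p = 1.58e-14). Both lie on the chromosome of *Cx3cr1*. Of 25 genes that regulate chemokine transcription, such as the NF-kB, AP-1 and IRF families, 24 had peaks of each mark, and 0 of 118 Rpb2 and 0 of 156 H3K27ac peaks passed (edgeR). At an unadjusted p of 0.05, 5 Rpb2 peaks of these regulators were higher and 8 lower in KO, and 8 H3K27ac peaks were higher and 2 lower, beside 6.12 and 6.06% of all Rpb2 and 1.35 and 3.6% of all H3K27ac peaks. All 13 immediate-early genes that respond to cell handling had a start-site Rpb2 peak, which summed to 2394 and 2785 CPM in WT and to 2463 and 2848 CPM in KO. For H3K27ac, the start-site peaks of 10 of them summed to 1049 and 1409 CPM in WT and to 1495 and 1553 CPM in KO. At an unadjusted p of 0.05 (edgeR), 9 of the 82 H3K27ac peaks of this list were higher in KO and 0 lower, beside 1.35 and 3.6% of all. Of its 58 Rpb2 peaks, 0 were higher and 3 lower, beside 6.12 and 6.06% of all. The H3K27ac direction is that of the 4 chemokine ligand peaks under that limit, and its part in them was not tested.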

How the data were processed

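ChIP-seq libraries for Rpb2 and H3K27ac of *Cx3cr1*-WT and *Cx3cr1*-KO microglia were used, 2 pools of 3 mice per genotype and mark. The authors aligned reads with Bowtie 2 (mm10), discarded multiple alignments, called HOMER peaks, kept those with a low irreproducible discovery rate between pools and joined the lists of both genotypes. The deposited values are raw counts of reads per merged peak and library, 1 table per mark, with the library totals in the header. Unused columns of sample values numbered 0. The input libraries were not used here. Chromosome names and lengths of the tables were checked against GRCm38.p6.

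The test was the quasi-likelihood F test of edgeR 4.0.16 under R 4.3.3, with TMM factors, genotype as the only term and Benjamini-Hochberg adjustment over all tested peaks of a mark. Peaks averaging 4 or more reads in either genotype entered, and the threshold was 0.05. The pools came from different animals, so p-values measure the spread between pools, and an exact permutation test of 2 against 2 pools cannot pass 0.05. The test was run on simulated counts with large changes placed only at peaks with many reads. That check does not show how often small changes or changes at weak peaks are missed. Alternatives included total reads or loess offsets as scaling, DESeq2 1.42.0, edgeR's likelihood ratio test, other filters and peak sets, reads summed per gene, sex as a replicate block, and each pool left out in turn, where a lone pool is assumed to vary like the other genotype. The newer quasi-likelihood method and the peaks of both lists were added after seeing the data.

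For each gene and mark, the peak nearest the start if within 1000 bp, the peak with most reads, and the 3 peaks with the lowest p were named; other features named were chosen after their values were seen, as stated there. The genes and lists were chosen with earlier results of these data known. A count of 3 reads was the smallest told apart from 0, which is 0.228 to 2.33 CPM over the libraries. There are no molecular identifiers, so intervals and floors cover counting error only. Sequences are from RefSeq. Python 3.11.15 with pandas 2.3.3, SciPy 1.17.1 and matplotlib 3.10.9 was used.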

Additional observations from a re-analysis of the deposited data

Results flagged for a closer look

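At 4 of the 14 H3K27ac peaks plotted by sex, the log2 ratio of KO to WT was positive in the female and negative in the male pools. Their 95% exact counting intervals lay on opposite sides of 0. The share of all H3K27ac peaks with such intervals is not given, so the count is no result about these genes. At the start of *Ccl3* (255 bp) the female ratio was 0.92 and the male ratio -0.26. At the start of *Ccl9* (195 bp) it was 0.87 and -0.48, and at the highest peak of *Ccl9* (8238 bp) 0.84 and -0.83. At the distal peak of *Cxcl10* (-4677 bp) it was 0.46 and -0.24. Each sex had 1 pool per genotype, so the difference between the sexes was not tested, and the WT library among the female pools had 15.9% of its reads in peaks.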

How the results depend on the processing

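No chemokine ligand peak passed for Rpb2 under any alternative run, and for H3K27ac none passed except with a WT pool left out. Without the WT female library 3 of 47 peaks passed, beside 1.53% of all: *Ccl12* at -13776 and *Ccl2* at -30515 bp, higher in KO, and *Ccl9* at 8238 bp, lower in KO at -0.64. Without the WT male library 10 passed, all higher in KO, beside 14.8% of all (4.92% higher and 9.87% lower), with *Ccl9* at 8238 bp now at 0.67, *Ccl6* at -24833 bp at 1.41, *Ccl2* at -11832 bp at 2.54 and the start of *Ccl6* at 0.72. Calls over the whole H3K27ac table also rose, from 13 to 694 and 8157. The cause was not tested.

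Leaving out 1 pool at a time, the median log2 fold change of the chemokine peaks ran from -0.30 to -0.18 for Rpb2 and from -0.11 to 0.49 for H3K27ac. Ranges for single peaks cover the start-site, highest and lowest-p peaks alone. They leave out the *Ccl9* Rpb2 peak at 12965 bp, where the KO pools lay between the WT pools. Ranges that crossed 0 for Rpb2 were -0.14 to 2.28 at *Ccl2*, -0.20 to 0.29 at *Cxcl10* and -0.18 to 0.60 at *Cxcl16*. For H3K27ac at start sites they were -0.075 to 0.80 (*Ccl12*), -0.020 to 1.15 (*Ccl2*), -0.085 to 0.77 (*Ccl3*), -0.47 to 0.86 (*Ccl9*), -0.42 to 0.30 (*Ccl4*) and, the highest being a fit against 0 reads, -0.53 to 8.84 (*Cxcl10*). At distal peaks they were -0.64 to 0.67 (*Ccl9* at 8238 bp), -0.21 to 0.75 (*Ccl4* at -4884 bp) and -0.29 to 0.49 (*Cxcl10* at -4677 bp). At the start of *Ccl7*, H3K27ac ran from 0.33 without WT male to 1.98 without WT female.

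With total reads as library size the median of all peaks moved to 0.37 for Rpb2 and 0.53 for H3K27ac. The median of the chemokine peaks moved to 0.26 and 0.65. Start-site Rpb2 moved to 0.14 at *Ccl12*, -0.80 at *Ccl3*, -0.21 at *Ccl6* and -0.13 at *Ccl9*. H3K27ac of *Ccl4* at 441 and *Ccl9* at 8238 bp moved to 0.41 and 0.26. The Rpb2 median was -0.18 with at least 10 reads in every library, -0.19 within 1000 bp of a start and -0.33 in both lists. H3K27ac of *Ccl9* at 195 bp became -0.062 with loess offsets, -0.0082 with DESeq2, -0.012 with at least 10 reads, -0.056 within 1000 bp of a start and -0.086 with the newer quasi-likelihood method. That of *Cxcl10* at -4677 bp became -0.050, -0.013, -0.0084 and, with the newer method, -0.036.

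The pools of 1 sex share only that label, and their deviations correlated at -0.0080 for Rpb2 and 0.0043 for H3K27ac over all tested peaks. With the sex label as a replicate block, 0 chemokine peaks passed, their median was -0.07 and 0.18, and 4 and 12 of all peaks passed, against 2 and 13 without it. For Rpb2 the library labelled WT female held 136 Y-linked reads, against 0 in KO female. The Rpb2 correlation and block therefore do not test pairing by sex. Over all Rpb2 peaks, calls numbered 1022 with DESeq2, 924 with the likelihood ratio test, 272 with the newer method, 30 with at least 10 reads, 15 with loess offsets, 8 in both lists, 3 with total reads, 0 near a start or by gene, and 0 to 2210 with a pool left out. For H3K27ac they numbered 240 with DESeq2, 1 with at least 10 reads, 0 with total reads, the newer method, both lists, near a start or by gene, and 2 to 8157 with a pool left out.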
